A study of Solanum lycopersicum with 8 samples.

Results

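The genes described here are 9 tomato genes of gibberellin metabolism and signalling, taken by identifier from a table of 34722 genes. They comprise the gibberellin 20-oxidases GA20ox1 (Solyc03g006880), GA20ox2 (Solyc06g035530) and GA20ox3 (Solyc11g072310), and the 3-oxidases GA3ox1 (Solyc06g066820) and GA3ox2 (Solyc03g119910). The set also holds the 2-oxidases GA2ox2 (Solyc07g056670), GA2ox4 (Solyc07g061720) and GA2ox5 (Solyc07g061730), and PROCERA (Solyc11g011260), which encodes the tomato DELLA protein. For all 9, NCBI RefSeq lists a gene of that name or a synonym on the chromosome that the identifier gives, with PROCERA listed as GAI. The RefSeq list used holds no such identifiers, so the link from identifier to name was not checked directly. RNA was sequenced from shoot apical meristems dissected out of acetone-fixed, greenhouse-grown seedlings. The plants were late termination (ltm) mutants and wild type (WT), each taken with 6 leaves and with 4 leaves, and every one of the 4 groups has 2 libraries, A and B. The series' design set the mutant against WT of the same vegetative stage, and WT meristems in floral transition against vegetative ones, without saying which leaf number is which. The labels give neither the ltm allele and its locus nor the WT cultivar, so the mutated gene was not checked. They also do not say whether A and B came from separate plants. The p-values thus rest on the difference between A and B alone, and it may be a technical one.

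Gibberellins are growth hormones made by a chain of enzymes. The 20-oxidases make the precursors, the 3-oxidases turn these into the bioactive hormone, and the 2-oxidases inactivate both. Bioactive gibberellin binds the GID1 receptors, which then bring DELLA proteins to the F-box protein GID2 for degradation. DELLA proteins such as PROCERA repress gibberellin responses, and plants commonly hold gibberellin low in the shoot meristem and higher in the young leaves around it.

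The libraries held between 17895357 and 21987881 reads in genes. Expression is given as the normalized read count, the reads of a gene divided by the library's size factor (0.883 to 1.09). Values are not per length, so the levels of different genes are not compared with each other. Sums over a class of genes are compared between libraries alone. Markers of the meristem (TKN2, TKN1, WUS, CLV3, LAS and GOB) had reads in every library, 6 of 6, and their summed value was 15313 to 15802 in ltm at 6 leaves, 10776 to 13307 in WT at 6 leaves, 11788 to 14763 in ltm at 4 leaves and 9312 to 10925 in WT at 4 leaves. Per library TKN2, TKN1 and GOB had 1299 to 6828 and WUS, CLV3 and LAS 85.6 to 568, so the sum largely follows the former. The mean of CLV3 was lower in ltm, with 153.9 against 237.1 in WT at 6 leaves and 106.3 against 161.5 at 4 leaves. The means of the other meristem markers were higher in ltm at both stages, that of WUS at 6 leaves only 189.7 against 187.8. Both B libraries at 4 leaves were set apart. On the first principal component of all tested genes (35.4% of the variance) ltm 4 leaves B was at 44.2 and WT 4 leaves B at 46.4, against -38.9 to 5.57 for the other 6 libraries. Those 2 libraries also had the highest summed value of 14 identifiers taken as green-tissue genes, 14553 in ltm and 10856 in WT, against 6089 to 6929 in the other 6. Of these 14 genes, 13 had reads in every library. At 4 leaves all 13 were higher in B than in A in ltm, and 8 of 13 were in WT. Between 75.3% and 82.1% of each sum came from Solyc02g070940 and Solyc03g005760. The lateral-organ markers LA and PHAN had reads in every library, and their summed value was 10406 to 11045 in ltm at 6 leaves, 10794 to 11373 in WT at 6 leaves, 10906 to 11054 in ltm at 4 leaves and 10957 to 12593 in WT at 4 leaves.

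None of the 7 members that could be tested passed the threshold in any comparison by limma, edgeR or DESeq2. The fit reported was limma on log2(value + 1) over 19186 genes, those reaching a value of 10 in 2 libraries or more, and genes were called at a Benjamini-Hochberg adjusted p under 0.05. The lowest adjusted p of a member in this limma fit was 0.512. Of all tested genes, 0.00521% were called in ltm against WT at 6 leaves, 0.00521% in ltm against WT at 4 leaves and 0.0417% in ltm against WT over both stages. The share was 0% for 6 against 4 leaves in WT, in ltm and over both genotypes, and 0% for the interaction of genotype and stage. Before adjustment, p was under 0.05 for 1158, 612, 1818 and 138 genes in those last comparisons. There edgeR also called 0 genes each time, and DESeq2 called 11, 4, 52 and 0. The members are therefore described by their values in each library and by the 95% intervals of the fit, and 2 of these 49 member intervals leave out 0. Unadjusted, the p of limma was under 0.05 for 6.45% of all tested genes in ltm against WT at 6 leaves, 2.91% at 4 leaves and 8.58% over both stages. For 6 against 4 leaves it was so for 3.19% of genes in ltm, 6.04% in WT and 9.48% over both genotypes, and for 0.719% in the interaction.

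**Figure D1:**
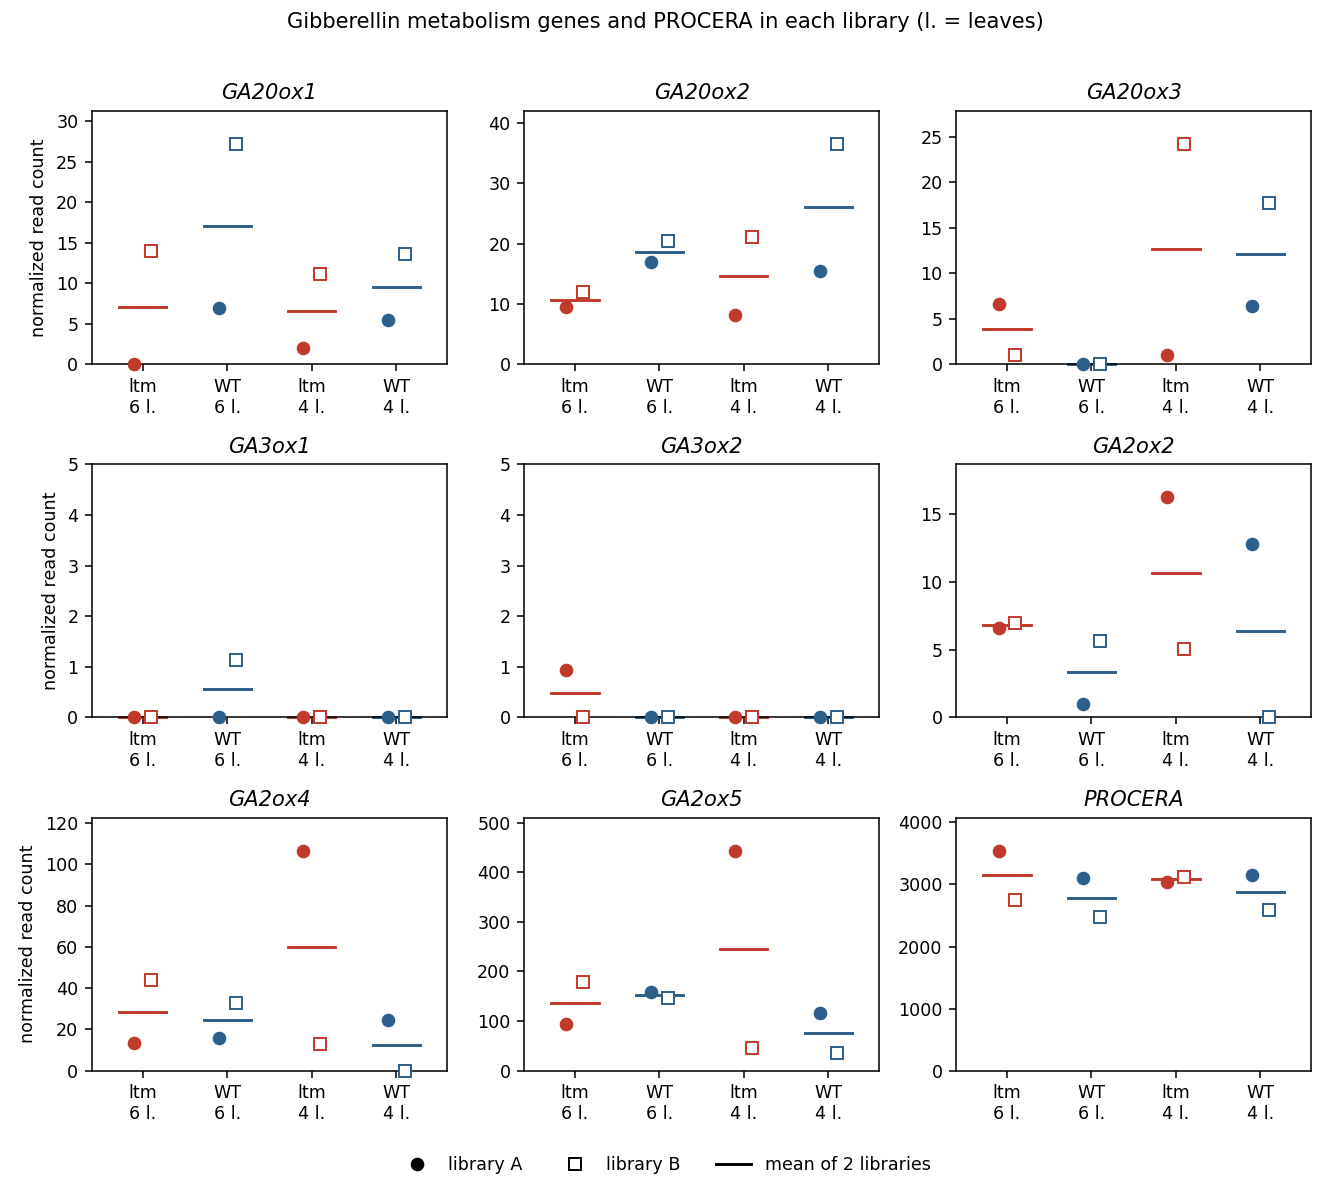
Normalized read count (vertical axis, from 0, a scale of its own per gene) of the 9 members in each library, with ltm left of WT at 6 and at 4 leaves; filled circles are A libraries, open squares B libraries and lines the mean of 2 libraries. GA20ox2 lay lower in ltm than in WT of the same letter, GA2ox4 and GA2ox5 peaked in ltm 4 leaves A, the 3-oxidases had 1 read each, and PROCERA stayed between 2478 and 3545.

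The 20-oxidase GA20ox2 was the member with the most even difference between the genotypes, lower in ltm in all 4 letter-matched pairs. Its normalized read counts were 9.46 and 12.0 in ltm at 6 leaves, against 16.9 and 20.4 in WT at 6 leaves. At 4 leaves they were 8.12 and 21.1 in ltm, against 15.5 and 36.5 in WT. The genotypes did not overlap at 6 leaves and overlapped at 4 leaves, where B was the higher library in both. The letter-matched differences lay between -0.86 and -0.72 on the log2(value + 1) scale, although the whole gene rests on 138 reads in 8 libraries. Of all tested genes, 13.9% were lower in ltm in all 4 pairs. The fitted log2 fold change of ltm over WT was -0.75 ± 0.58 at 6 leaves and -0.81 ± 0.58 at 4 leaves (SE). Over both stages it was -0.78 ± 0.41, with an interval of -1.72 to 0.17 and a limma adjusted p of 0.652. With the letter as a replicate block that interval was -1.51 to -0.05. The value at 4 leaves depended on the library left out, with -0.17 without ltm 4 leaves A, -0.22 without WT 4 leaves B, -1.40 without WT 4 leaves A and -1.45 without ltm 4 leaves B. The value over both stages was -0.46 without ltm 4 leaves A and -0.48 without WT 4 leaves B. LA (Solyc07g062680), one of the lateral-organ markers, was likewise lower in ltm in all 4 pairs. It had 479 and 544 normalized reads in ltm at 6 leaves, against 675 and 853 in WT at 6 leaves, and 528 and 488 in ltm at 4 leaves, against 609 and 565 in WT at 4 leaves, with no overlap at either stage. Of all tested genes, 21.9% were so separated downward at 6 leaves and 11.7% at 4 leaves. PHAN (Solyc09g010840), the other lateral-organ marker, overlapped between the genotypes at both stages. It had 9927 to 10501 in ltm and 10119 to 10520 in WT at 6 leaves. At 4 leaves it had 10418 to 10526 in ltm and 10392 to 11984 in WT. Whether lateral-organ tissue has a part in the GA20ox2 difference was not tested. For GA20ox2, an exact two-sided permutation test of the genotype within stages gave p = 0.111, where 36 arrangements allow no p below 0.0556. In bulk meristems, fewer cells with the transcript and less of it per cell cannot be told apart, for this and every other member.

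GA20ox1, the second 20-oxidase, was also lower in ltm in all 4 letter-matched pairs, with less even sizes. It had 0 and 14.0 normalized reads in ltm at 6 leaves, against 6.97 and 27.2 in WT at 6 leaves. At 4 leaves it had 2.03 and 11.1 in ltm, against 5.48 and 13.6 in WT. Library B was above library A in all 4 groups, by 1.17 to 3.91 on the log2(value + 1) scale, so the genotypes overlapped at both stages. The letter-matched differences ran from -2.99 to -0.27, and the gene had 77 reads in all. The log2 fold change of ltm over WT was -1.95 ± 1.33 at 6 leaves (interval -5.01 to 1.10) and -1.32 ± 0.94 over both stages (interval -3.48 to 0.84, limma adjusted p 0.732). With the replicate block the intervals were -3.67 to -0.24 and -2.53 to -0.10. The value at 6 leaves was 0.00081 without ltm 6 leaves A, the library with no GA20ox1 read, -3.91 without ltm 6 leaves B and -1.04 without WT 6 leaves B. The value over both stages was -0.34 without ltm 6 leaves A, -0.82 without ltm 4 leaves A, -0.86 without WT 6 leaves B and -2.29 without ltm 6 leaves B.

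GA20ox3, the third 20-oxidase, was the member with the widest difference between the stages. No GA20ox3 read was found in either WT library at 6 leaves, against 6.40 and 17.7 normalized reads (24 reads) in WT at 4 leaves. In ltm there were 6.62 and 0.9997 normalized reads at 6 leaves (8 reads), against 1.02 and 24.2 at 4 leaves. The WT stages did not overlap and the ltm stages did. The exact Poisson 95% interval of the level reached 1.95 normalized reads in WT at 6 leaves and started at 7.49 in WT at 4 leaves, for counting error only. Taking 3 reads over the group as the floor and the 24 reads as exact, GA20ox3 was 7.36-fold lower in WT at 6 leaves. Against WT 4 leaves A alone, with its 7 reads taken as exact, it was 4.02-fold lower. Neither value is a bound, since that floor, 1.59 normalized reads, lies below the Poisson limit of 1.95. In ltm at 6 leaves the Poisson interval was 1.68 to 7.66, which overlaps that of WT at 6 leaves, and 7 of its 8 reads were in library A. The fitted ltm over WT value at 6 leaves was 1.97 ± 1.28 (interval -0.98 to 4.91). The fitted log2 fold change of WT at 6 over WT at 4 leaves was -3.56 ± 1.28, with an interval of -6.50 to -0.62 and a limma adjusted p of 0.727. It depends on the added 1 and is no bound. Over both genotypes the 6 over 4 leaves value was -2.21 ± 0.90 (interval -4.29 to -0.13, limma adjusted p 0.512), and these were the member intervals that left out 0. The interaction was 2.69 ± 1.81 (interval -1.47 to 6.85, limma adjusted p 0.9999), so the ltm and WT stage differences were not shown to differ. The interaction came to 0.87 without ltm 4 leaves A, and to 1.73 or 3.66 without the A or the B library of ltm at 6 leaves. Most GA20ox3 reads at 4 leaves came from the B libraries, those with the high green-tissue values; the part of green tissue in the difference was not tested.

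The genes of the last activating step were close to undetected. GA3ox1 had 1 read, in WT 6 leaves B, and GA3ox2 had 1 read, in ltm 6 leaves A, out of 161098589 reads in the 8 libraries. For a count of 1 the exact Poisson 95% interval reaches 5.57 reads. In a single library, a count of 0 allows up to 3 reads, or 2.74 to 3.40 normalized reads, for counting error only. No genotype or stage difference in the 3-oxidases was detectable at this depth. The fourth 20-oxidase, GA20ox4, was also below the filter, with 0 to 2.03 normalized reads per library.

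Of the 2-oxidase members, GA2ox5 was the one with reads in every library, and its highest and lowest libraries were both at 4 leaves. Its normalized read counts were 94.6 and 177.9 in ltm at 6 leaves, against 158.3 and 147.2 in WT at 6 leaves. At 4 leaves they were 443.7 and 46.3 in ltm, against 117.0 and 35.5 in WT. The ltm libraries enclosed the WT range at 6 leaves and overlapped it at 4 leaves. Both WT libraries at 6 leaves were above both at 4 leaves, with a log2 fold change of 1.23 ± 0.95 (interval -0.96 to 3.42). In ltm the 6 over 4 leaves value was -0.15 ± 0.95, and 1.47 without ltm 4 leaves A. The ltm over WT value at 4 leaves was 1.14 ± 0.95 (interval -1.05 to 3.34), but -0.47 without ltm 4 leaves A and 0.30 without WT 4 leaves B. Over both stages ltm over WT was 0.46 ± 0.67, and -0.35 without ltm 4 leaves A, so its sign rests on that library. The interaction of -1.38 ± 1.35 was likewise 0.24 without that library. Without WT 4 leaves B the WT stage value was 0.38, and the both-stage and interaction values were 0.03 and -0.53.

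GA2ox4, listed in RefSeq as the direct neighbour of GA2ox5 with 0 genes between them, followed the same order of libraries at 4 leaves. It had 13.2 and 44.0 normalized reads in ltm at 6 leaves, against 15.9 and 32.8 in WT at 6 leaves. At 4 leaves it had 106.6 and 13.1 in ltm, against 24.7 and 0 in WT. The genotypes overlapped at both stages. The log2 fold change of ltm over WT at 4 leaves was 2.94 ± 1.502 (interval -0.52 to 6.40) and that of WT at 6 over WT at 4 leaves was 2.24 ± 1.502 (interval -1.22 to 5.70). These were 0.60 and -0.10 without WT 4 leaves B, where GA2ox4 had no read, and 5.28 and 4.58 without WT 4 leaves A. The first was 1.48 without ltm 4 leaves A. Over both stages ltm over WT was 1.51 ± 1.06 (interval -0.93 to 3.96), and 0.34 without WT 4 leaves B. The 2 genes are paralogs, and how the authors' counting handled reads that fit both was not checked, so their separate values are uncertain.

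GA2ox2 was the only 2-oxidase member with more normalized reads in ltm in all 4 letter-matched pairs, on 55 reads in all. It had 6.62 and 6.998 in ltm at 6 leaves, against 0.996 and 5.66 in WT at 6 leaves. At 4 leaves it had 16.2 and 5.04 in ltm, against 12.8 and 0 in WT. The genotypes did not overlap at 6 leaves and overlapped at 4 leaves. The letter-matched differences were 0.26 to 2.59 on the log2(value + 1) scale, and 14.6% of all tested genes were higher in ltm in all 4 pairs. The log2 fold change of ltm over WT over both stages was 1.28 ± 0.89, with an interval of -0.77 to 3.32 and a limma adjusted p of 0.722. Without WT 4 leaves B, which had no GA2ox2 read, it was 0.33, and without WT 6 leaves A it was 0.84.

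PROCERA, the DELLA repressor, had the narrowest intervals of the tested members. It had 3545 and 2752 normalized reads in ltm at 6 leaves, against 3096 and 2478 in WT at 6 leaves. At 4 leaves it had 3032 and 3127 in ltm, against 3155 and 2592 in WT. All 4 groups overlapped, and library A was the higher one in every group but ltm at 4 leaves. The log2 fold change of ltm over WT was 0.17 ± 0.17 at 6 leaves, 0.11 ± 0.17 at 4 leaves and 0.14 ± 0.12 over both stages. The last interval, -0.13 to 0.41, corresponds to 0.913-fold to 1.33-fold of WT. The stage values of 6 over 4 leaves were 0.02 ± 0.17 in ltm and -0.05 ± 0.17 in WT. The 4 values within a stage or a genotype lay so close to 0 that leaving out 1 library turned their signs. The genotype value was -0.01 at 6 leaves without ltm 6 leaves A and -0.03 at 4 leaves without WT 4 leaves B. The stage value in ltm was -0.16 without library A at 6 leaves and -0.0016 without library A at 4 leaves, and in WT it was 0.11 without WT 6 leaves B and 0.10 without WT 4 leaves A. PROCERA had 23823 reads in all, and its A and B libraries differed beyond counting error in 3 of 4 groups. No share of all tested genes was taken for this. The DELLA protein, whose amount gibberellin controls by degradation, was not measured.

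**Figure D2:**
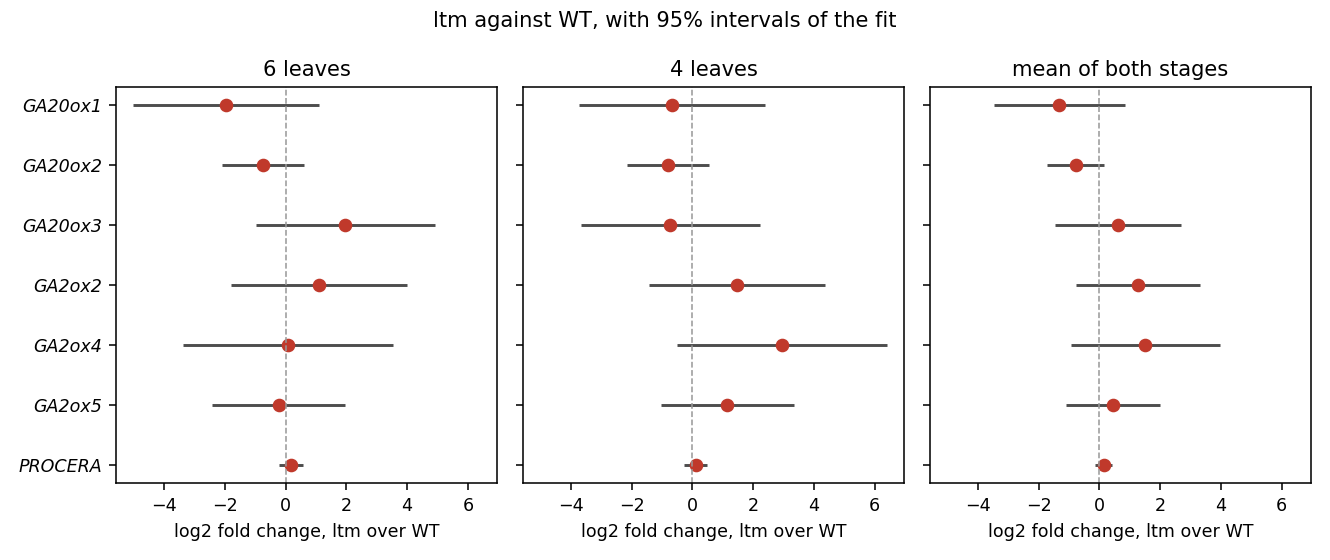
Log2 fold change of ltm over WT (horizontal axis, on log2(value + 1)) for the 7 tested members at 6 leaves, at 4 leaves and as the mean of both stages; points are limma estimates and bars their 95% intervals. Every bar crosses 0; the PROCERA bars are the narrowest and the GA2ox4 bar at 4 leaves reaches from -0.52 to 6.40.

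Across the 7 tested members, the median log2 fold change of ltm over WT was 0.08 at 6 leaves, 0.11 at 4 leaves and 0.46 over both stages, beside medians of -0.01, 0.00 and 0.00 over all tested genes. The median of 0.46 is the GA2ox5 value itself, which was -0.35 without ltm 4 leaves A. For 6 over 4 leaves it was -0.39 in ltm and -0.03 in WT, beside 0.00 in both over all genes. At 6 leaves, GA20ox3 and GA2ox2 had both ltm libraries above both WT libraries and GA20ox2 had both below, while 22.5% of all tested genes were so separated upward and 21.9% downward. At 4 leaves no member was separated by genotype, against 12% of genes upward and 11.7% downward. Between the WT stages GA2ox5 was separated upward at 6 leaves and GA20ox3 downward, beside 20.9% and 21% of all genes. GA20ox3 had passed the filter only through its 4 leaves B libraries. No member separated the ltm stages, where 13.1% and 14.1% of genes did. Pairing the stages by genotype and letter, 0 members were lower at 6 leaves in all 4 pairs and 0 were higher, against 11.2% and 9.96% of all genes. Ordering the 4 groups by mean, neighbours overlapped for every tested member, with the exception of ltm over WT at 6 leaves for GA20ox3.

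**Figure D3:**
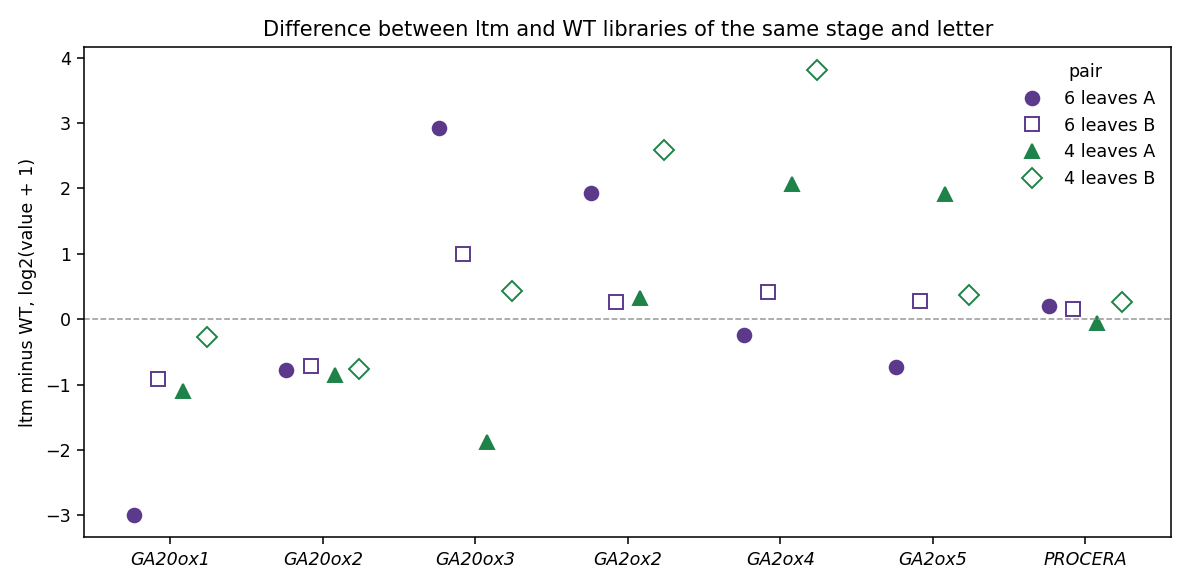
Difference between the ltm and the WT library of the same stage and letter (vertical axis, log2(value + 1)) for the 7 tested members; each symbol is 1 pair. The 4 points lie below 0 for GA20ox1 and GA20ox2 and above 0 for GA2ox2; those of GA20ox2 span only -0.86 to -0.72, while those of GA20ox3, GA2ox4 and GA2ox5 lie on both sides of 0.

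In the members, libraries of one group often differed by more than counting error. Comparing the A and B reads of a group with an exact binomial test (29 tests, Benjamini-Hochberg adjusted), 19 of the 27 member and group combinations with reads were beyond it, 4 of 4 groups for GA2ox4 and 3 of 4 for PROCERA. The test compares those libraries, not the conditions. It was run for the members alone. No share of all tested genes stands beside these counts, so they show no trait particular to the members. At 4 leaves the gaps of the oxidases had the same direction in both genotypes: GA20ox1, GA20ox2 and GA20ox3 were higher in B, and GA2ox2, GA2ox4 and GA2ox5 were lower in B. All 6 gaps exceeded 1 on the log2(value + 1) scale in both genotypes. Of all tested genes, 1.9% were higher and 0.636% were lower in B by that much in both genotypes. Regardless of size, 35.3% were higher and 35.4% lower in B in both. The smallest of the 6 gaps was 1.17, for GA20ox1 in WT, so the cut of 1 lies just under it. GA20ox1, GA20ox2, GA20ox3, GA2ox2 and GA2ox4 had 55 to 248 reads over the 8 libraries, few enough for large counting error. The shares cover genes of every level, and none was taken over genes of like read count. At the filter, GA20ox3 passed only through its B libraries at 4 leaves, and GA2ox2 only through its A libraries at 4 leaves. Those libraries are the high side of the gaps reported for these genes. GA20ox1 passed only through B libraries, of both stages. For these genes the filter itself thus favoured such a gap, and the shares of all tested genes are no fair measure of it.

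Summed over the members of each class, the 2-oxidases and 20-oxidases were high in opposite libraries at 4 leaves. The 2-oxidase members had 558 reads and the 20-oxidase members 11 in ltm 4 leaves A, a ratio of 50.7, while ltm 4 leaves B had 64 and 56 reads, a ratio of 1.14. WT 4 leaves A had 169 and 30 reads, a ratio of 5.63, and WT 4 leaves B had 34 and 65 reads, a ratio of 0.523. GA2ox5 held 71.9% to 100% of the 2-oxidase member reads of each library, so these sums largely follow that gene. Without GA2ox5 the ratio at 4 leaves was 11 in ltm A, 0.321 in ltm B, 1.37 in WT A and 0 in WT B. With GA2ox5 the ratio was thus 44.4-fold higher in A than in B in ltm and 10.8-fold higher in WT. With GA2ox7 (Solyc02g080120) added to the 2-oxidase sum, an alternative chosen after the data were seen, it was 15.3-fold higher in ltm and 3.98-fold higher in WT. With all listed 2-oxidases over all listed 20-oxidases it was 12.9-fold and 4.01-fold higher.

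At 6 leaves the class ratio was 7.12 and 8.48 in ltm, against 7.33 and 3.90 in WT. The log2 ratio was on average 1.34 higher in ltm than in WT (exact two-sided permutation p = 0.444) and 0.83 higher at 6 than at 4 leaves (exact p = 0.5), with 0.0556 the smallest p possible. The spread between the 4 leaves libraries therefore exceeded both differences. The 4 leaves B libraries had the low ratios and the summed green-tissue values of 14553 in ltm and 10856 in WT, against 6089 and 6850 in the A libraries of ltm and WT. The part of green tissue in the class ratio was not tested.

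**Figure D4:**
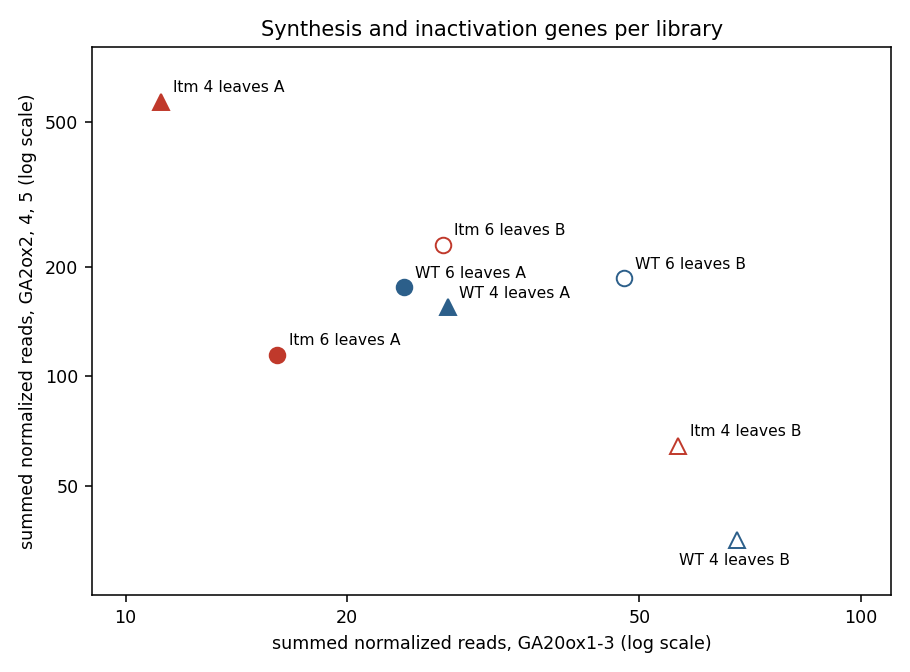
Summed normalized reads of GA2ox2, GA2ox4 and GA2ox5 (vertical axis, log scale) against those of GA20ox1, GA20ox2 and GA20ox3 (horizontal axis, log scale), 1 point per library; red is ltm, blue WT, circles 6 leaves, triangles 4 leaves, filled A and open B. The 4 leaves libraries run from ltm A at the upper left to WT B at the lower right, and the 6 leaves libraries lie between them.

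Among the 21 pairs of tested members, 3 had a Pearson correlation of log2(value + 1) over the 8 libraries with an adjusted exact permutation p under 0.05. Only member pairs were so tested, and no share of all pairs of tested genes was taken. How common such correlations are in these libraries is thus not known. The permutation ran over the 8 libraries without regard to group or letter. GA2ox4 and GA2ox5 had r = 0.87 (exact permutation p = 0.00521, adjusted 0.0498) and Spearman's rho = 0.93 (adjusted exact permutation p 0.0469). GA2ox2 and GA2ox4 had r = 0.85 (adjusted exact permutation p 0.0498) and rho = 0.79 (adjusted 0.147). Leaving out the 2 libraries farthest from the median of the first gene gave r = 0.69 and 0.68. GA20ox1 and PROCERA had r = -0.85 (adjusted exact permutation p 0.0498) and rho = -0.81 (adjusted 0.147), and r = -0.88 without the 2 farthest libraries. GA20ox2 and GA2ox4 had r = -0.80 (adjusted exact permutation p 0.0792), but -0.02 without ltm 4 leaves A and WT 4 leaves B, so that relation rests on those libraries. With the mean of each letter removed and permutation within letters (576 arrangements, added after the data were seen), 0 of the 21 pairs stayed under 0.05. The values were then r = 0.86 for GA2ox4 and GA2ox5, 0.83 for GA2ox2 and GA2ox4 (adjusted exact permutation p 0.0911 each) and -0.66 for GA20ox1 and PROCERA (adjusted 0.255).

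By the same measure, the tested gene most like each member was Solyc01g010580 for GA20ox1 (r = 0.97), Solyc07g063900 for GA20ox2 (r = 0.98) and Solyc11g007020 for GA20ox3 (r = 0.99). It was Solyc01g103290 for GA2ox2 (r = 0.98), Solyc02g079260 for GA2ox4 (r = 0.97), Solyc06g051730 for GA2ox5 (r = 0.997) and Solyc01g006340 for PROCERA (r = 0.957). Each is the highest value over all tested genes, from 8 libraries that share letters, and is given as a description; the files give these identifiers no name.

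The rest of the pathway was described from 15 further genes listed by identifier, 11 of which passed the filter. By limma, edgeR or DESeq2, 0 of these passed the threshold in any comparison, and 12 of their 77 limma intervals left out 0, to be read beside the 0.719% to 9.48% of all genes per comparison. All 12 belong to KAO, GA2ox7, GAMYB2, GID1b-1 and GID1b-2. The comparisons share the same 8 libraries, so the intervals of a gene are not independent and the 12 are no measure of enrichment. In 8 of the 11 the log2 fold change of ltm over WT was positive at 6 leaves, at 4 leaves and over both stages, with medians of 0.06, 0.14 and 0.17. For 6 over 4 leaves the medians were 0.16 in ltm and 0.27 in WT. At 6 leaves 3 genes had both ltm libraries above WT and 1 had both below, and at 4 leaves the numbers were also 3 and 1, to be read beside the all-gene shares given above.

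Early in the pathway, KAO (Solyc01g080900), a kaurenoic acid oxidase by its identifier alone, gave the largest differences relative to their error. It is named because of these values. Its normalized read counts were 92.7 and 102.0 in ltm at 6 leaves, against 81.7 and 58.9 in WT at 6 leaves. At 4 leaves they were 195.9 and 160.1 in ltm, against 103.3 and 106.5 in WT. The genotypes did not overlap at either stage, and both genotypes had the lower values at 6 leaves. Of all tested genes, 22.5% were separated upward in ltm at 6 leaves and 12% at 4 leaves. Between the stages, 14.1% were separated downward at 6 leaves in ltm and 21% in WT. No share was taken for separation at both stages together. For KAO, the log2 fold change of ltm over WT was 0.62 ± 0.16 over both stages (interval 0.25 to 0.98, limma adjusted p 0.357). That of 6 over 4 leaves over both genotypes was -0.72 ± 0.16 (interval -1.09 to -0.36, limma adjusted p 0.512). The ent-kaurene synthase gene KS (Solyc07g066670) had a log2 fold change of ltm over WT of 0.10 ± 0.08 over both stages.

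Of the gibberellin receptors, GID1b-1 (Solyc09g074270) was higher in ltm than in WT in all 4 letter-matched pairs, as were 14.6% of all tested genes. It had 985 and 1033 normalized reads in ltm at 6 leaves, against 833 and 578 in WT at 6 leaves. At 4 leaves it had 695 and 1046 in ltm, against 693 and 837 in WT. Its log2 fold change of ltm over WT was 0.54 ± 0.23 at 6 leaves (limma adjusted p 0.764) and 0.27 without WT 6 leaves B. GID1b-2 (Solyc06g008870) had 335 and 357 in ltm at 6 leaves, against 356 and 285 in WT, and 350 and 327 in ltm at 4 leaves, against 275 and 221 in WT. The genotypes were apart for this receptor at 4 leaves, with a log2 fold change of ltm over WT of 0.45 ± 0.17 (limma adjusted p 0.9999), or 0.30 without WT 4 leaves B. At that stage 12% of all tested genes had both ltm libraries above both WT libraries. GID1a (Solyc01g098390) and the F-box gene GID2 (Solyc04g078390) differed by 0.07 ± 0.10 and 0.18 ± 0.13 over both stages.

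Among the remaining inactivation and response genes, GA2ox7 (Solyc02g080120, named by its identifier alone) was higher at 6 leaves in all 4 letter-matched pairs. Its normalized read counts were 351 and 408 in ltm and 551 and 374 in WT at 6 leaves, against 295 and 221 in ltm and 385 and 300 in WT at 4 leaves. Its log2 fold change of 6 over 4 leaves was 0.49 ± 0.17 (interval 0.11 to 0.87, limma adjusted p 0.512), and that of ltm over WT was -0.34 ± 0.17 (limma adjusted p 0.628), or -0.20 without WT 6 leaves A. Of all tested genes, 9.96% were higher at 6 leaves in all 4 pairs. GAMYB2 (Solyc06g073640), named by its identifier alone after the MYB regulators downstream of gibberellin, had a 6 over 4 leaves value of 0.39 ± 0.12 (limma adjusted p 0.512). Both are named because of these values. GAST1 (Solyc02g089350), known in tomato as a gibberellin-stimulated transcript, had 71.9 and 86.0 normalized reads in ltm and 75.7 and 74.7 in WT at 6 leaves, against 72.1 and 214.5 in ltm and 122.5 and 85.6 in WT at 4 leaves. Its highest library was ltm 4 leaves B, one of those with the high green-tissue values, whose part in it was not tested. GA2ox1 had 0 reads in every library, and CPS and GA2ox3 were below the filter.

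**Figure D5:**
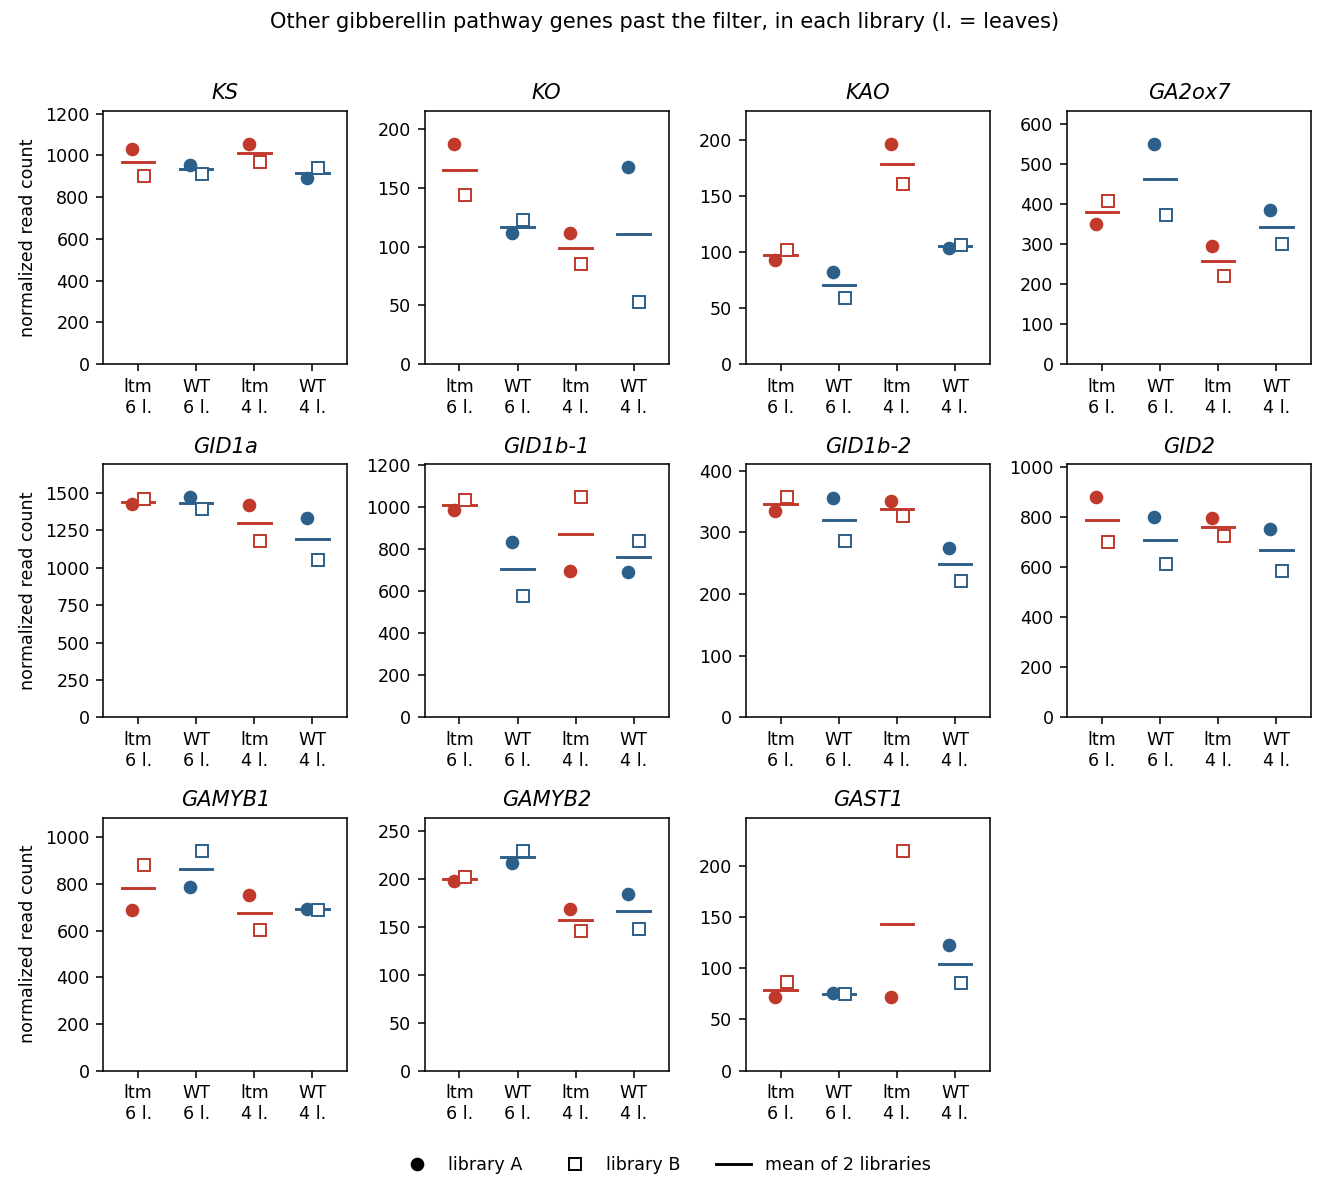
Normalized read count (vertical axis, from 0, a scale of its own per gene) of the 11 other pathway genes past the filter in each library, with ltm left of WT at 6 and at 4 leaves; filled circles are A libraries, open squares B libraries and lines the mean of 2 libraries. KAO lay higher in ltm than in WT at both stages, GID1b-1 did so at 6 leaves and GID1b-2 at 4 leaves.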

How the data were processed

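The table holds 34722 genes in 8 libraries. The submitters' processing notes name DESeq2 1.6.3, HTSeq 0.6.1p1 and TopHat2 2.0.10, and neither build nor strand setting is given in the sources used here. As the values themselves show, the authors deposited a normalized signal, each gene's read count over a library's size factor. All values (100%) were whole multiples of 1 read's worth (tolerance 1e-06), so whole reads were recovered. The count test foreseen was therefore replaced by limma 3.58.1 (R 4.3.3, trend) on log2(value + 1), with 1 mean per group over all 8 libraries and a shared spread, which understates the change of low genes. The script was checked on simulated data, with changes planted only in genes of higher mean value. That check does not cover genes as low as GA20ox1, GA20ox2, GA20ox3, GA2ox2 and GA2ox4. edgeR 4.0.16 and DESeq2 1.42.0 on the recovered reads, another scaling, pseudocounts, filters, a replicate block and left-out libraries were alternatives. Permutation tests and correlations used scipy 1.17.1, and floors are 3 reads. Intervals from reads cover counting error only.

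The letters were checked for pairing: deviations of A libraries from their group means correlated at 0.13 to 0.52 in all 6 pairs of groups, so letters were taken to pair libraries, which is a hint from the values alone.

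The members and lists were chosen with earlier results of these data known. The naming rule took all members, the pathway genes that RefSeq (assembly SLM_r2.1) names, and the best correlated gene of each member (the first of 3 kept). KAO, GA2ox7 and GAMYB2 fall outside it and were chosen after their values were seen. Of 24 member and pathway names, 19 matched RefSeq by name and chromosome, not by identifier. KO, KAO, GA2ox7, GAMYB1 and GAMYB2 rest on the identifier alone. A gene planned as a second KAO is GAME4 in RefSeq and was left out, and a list by annotation words could not be made. The green-tissue identifiers rest on general knowledge.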

Additional observations from a re-analysis of the deposited data

How the results depend on the processing

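With 2 libraries per group, and few reads for GA20ox1, GA20ox2, GA20ox3, GA2ox2 and GA2ox4, the intervals are wide. An interval that includes 0 does not show equal expression. No member was called in any comparison under any of up to 20 alternatives each, including edgeR, DESeq2 and the replicate block; the lowest adjusted p of a member over all settings was 0.0977 and that of another pathway gene 0.0882. With the replicate block the number of member calls was 0 in each comparison, and 5 of the 49 member intervals left out 0 in place of 2; the share of all genes with an unadjusted p under 0.05 was also higher with the block, such as 12.7% against 8.58% for ltm against WT over both stages. The block changed no call of a member. Over all genes, ltm against WT over both stages gave 8 calls by limma, 7 by edgeR, 145 by DESeq2 and 20 with the block, and 1 to 11 with 1 library left out; DESeq2 called 36 genes for ltm against WT at 6 leaves and 19 at 4 leaves, where limma called 1 each.

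Of 655 recomputed log2 fold changes for 35 reported values, 640 kept their direction and their side of the threshold and 15 reversed in sign, 13 of them when 1 library was left out. Without both 4 leaves B libraries, the WT 6 over 4 leaves value of GA2ox4 was -0.10 and the ltm over WT value of PROCERA at 4 leaves was -0.057. Leaving out 1 library at a time, ltm over WT ranged from -3.91 to 0.00081 for GA20ox1 at 6 leaves, from -0.47 to 2.76 for GA2ox5 at 4 leaves, and from -0.35 to 1.26 for GA2ox5 over both stages. For PROCERA it ranged from -0.0092 to 0.36 at 6 leaves and from -0.035 to 0.25 at 4 leaves. The 6 over 4 leaves value ranged from -0.10 to 4.58 for GA2ox4 in WT, from -1.77 to 1.47 for GA2ox5 in ltm, from -0.16 to 0.20 for PROCERA in ltm and from -0.21 to 0.11 for PROCERA in WT. The interaction of GA2ox5 ranged from -2.99 to 0.24. The other 25 values reversed under no alternative. Where a filter at 20 or a left-out library put GA20ox1, GA20ox3 or GA2ox2 below the filter, no value could be had. When a group was left with 1 library, that library was assumed to vary like the others.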
